A study of Mus musculus with 8 samples.

Results

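The genes described here encode the molecules of the mouse major histocompatibility complex (MHC), which display peptides to T cells, and the proteins that prepare those peptides. They are all rows of the count table whose Entrez number matched a symbol beginning with H2-, together with B2m, Tap1, Tap2, Tapbp, Psmb8, Psmb9, Psmb10, Cd74, Ciita and Nlrc5. That made 50 of 23282 genes, of which 37 had enough counts to be tested. The genes were chosen by symbol, and the set was put forward on the measured fold changes between AE3-null and wild-type hearts in these same libraries. Counts over the set are therefore descriptions and support nothing.

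RNA-seq libraries came from hearts of FVB/N males, 4 months old, and comprised 4 of wild-type and 4 of AE3-null genotype. AE3 is the product of Slc4a3 and exchanges chloride for bicarbonate across the membrane of heart muscle cells. AE3-null mice lack a working copy of this gene. The labels describe neither the null allele, nor any treatment, nor which parts of the heart were taken. Per the design text the libraries stand for 4 mice per genotype, so p-values are set by how far libraries of a genotype differ, whatever the source of that spread. The question was whether hearts without AE3 differ from wild-type hearts in the level of these genes.

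Total counts ranged from 9133628 to 27078351 per library, and levels are given as CPM, read counts relative to a library's TMM-scaled total. Slc4a3 stood at 378 to 388 CPM in the wild-type libraries and at 31.5 to 34.6 CPM in the AE3-null libraries, so each library matched its label. Summed levels of 8 heart muscle cell markers lay between 83075 and 90095 CPM over all libraries. Of 14136 genes tested with edgeR's quasi-likelihood F test, 6.47% were called at a Benjamini-Hochberg adjusted p under 0.05, with 3.16% higher and 3.31% lower in AE3-null hearts.

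Class I molecules are made of a heavy chain and beta-2 microglobulin, sit on nearly all cells, and carry peptides that the proteasome cuts in the cytosol and the TAP transporter moves into the endoplasmic reticulum. Class II molecules are pairs of an alpha and a beta chain found mainly on macrophages, dendritic cells and B cells, and carry peptides from the endosome. In the heart, muscle cells have little class I, and resident macrophages and endothelial cells hold much of the tissue's MHC. Interferon-gamma raises both classes, through the transactivators Nlrc5 for class I and Ciita for class II.

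The promoters of 6 members are printed here because the members varied together from library to library, as described further on. These windows show which of the control elements searched for they share. Only the elements named in the text were searched, so other shared elements may be missed. They come from RefSeq, build GRCm38.p6, and run from 250 bases before to 50 bases after the annotated start, 5′ to 3′ on the gene's own strand. H2-K1 and H2-D1 are the classical class I heavy chains, B2m is their partner, H2-Aa and H2-Eb1 are class II chains, and H2-Ke6 is an enzyme gene within the complex. Capitals mark an NF-kappaB site (GGGNNTTCC), an interferon response element (GAANNGAAA, or the longer form with a further A after the first GAA) or a Y box (ATTGG), each searched on both strands. The first 2 kinds are known as points where inflammatory and interferon signals act, and the Y box is bound by the factor NF-Y. No marked match overlaps another in these 6 windows.
H2-K1 (chr17:34000298-34000597, minus strand): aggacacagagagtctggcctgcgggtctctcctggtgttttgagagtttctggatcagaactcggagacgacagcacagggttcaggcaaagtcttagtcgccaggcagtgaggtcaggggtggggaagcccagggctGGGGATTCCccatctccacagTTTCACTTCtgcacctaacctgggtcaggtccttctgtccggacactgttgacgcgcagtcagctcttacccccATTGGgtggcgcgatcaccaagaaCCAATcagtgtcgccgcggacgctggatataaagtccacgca
H2-D1 (chr17:35262844-35263143, plus strand): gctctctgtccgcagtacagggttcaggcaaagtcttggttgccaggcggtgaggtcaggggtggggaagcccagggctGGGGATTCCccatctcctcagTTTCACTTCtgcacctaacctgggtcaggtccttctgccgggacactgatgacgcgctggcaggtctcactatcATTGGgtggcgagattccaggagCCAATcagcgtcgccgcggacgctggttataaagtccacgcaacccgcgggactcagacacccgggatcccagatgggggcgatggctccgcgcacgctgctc
B2m (chr2:122147437-122147736, plus strand): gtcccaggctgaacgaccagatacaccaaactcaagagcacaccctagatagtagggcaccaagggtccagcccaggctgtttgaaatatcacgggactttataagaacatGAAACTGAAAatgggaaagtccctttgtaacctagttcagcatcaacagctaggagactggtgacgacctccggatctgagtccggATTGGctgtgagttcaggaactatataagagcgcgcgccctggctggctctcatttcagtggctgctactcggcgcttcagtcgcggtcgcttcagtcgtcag
H2-Aa (chr17:34287774-34288073, minus strand): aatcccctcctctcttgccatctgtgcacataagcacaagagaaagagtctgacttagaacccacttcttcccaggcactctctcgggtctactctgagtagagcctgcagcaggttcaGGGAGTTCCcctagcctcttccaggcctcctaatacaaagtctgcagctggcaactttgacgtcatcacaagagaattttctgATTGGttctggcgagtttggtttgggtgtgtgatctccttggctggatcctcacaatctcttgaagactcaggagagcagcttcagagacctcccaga
H2-Eb1 (chr17:34305617-34305916, plus strand): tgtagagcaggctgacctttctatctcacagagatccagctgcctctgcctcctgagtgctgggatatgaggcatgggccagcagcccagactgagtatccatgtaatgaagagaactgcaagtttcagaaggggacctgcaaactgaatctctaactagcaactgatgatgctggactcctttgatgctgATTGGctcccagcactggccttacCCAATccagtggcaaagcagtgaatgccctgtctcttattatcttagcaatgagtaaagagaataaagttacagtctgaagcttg
H2-Ke6 (chr17:34028006-34028305, minus strand): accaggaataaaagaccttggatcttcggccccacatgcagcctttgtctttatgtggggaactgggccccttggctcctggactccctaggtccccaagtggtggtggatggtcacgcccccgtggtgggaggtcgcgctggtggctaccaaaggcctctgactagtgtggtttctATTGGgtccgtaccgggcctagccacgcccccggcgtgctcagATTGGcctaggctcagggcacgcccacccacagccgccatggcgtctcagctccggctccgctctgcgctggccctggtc

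In H2-K1 and H2-D1 the elements stood in the same order and nearly the same spacing. The interferon response element began 21 bases after the start of the NF-kappaB site in both, and the first Y box 74 bases after that. The second Y box followed 24 bases on in H2-K1 and 23 in H2-D1. H2-Q4, H2-Q6 and H2-Q7, non-classical class I genes whose promoters are not printed, had the same order with 20, 21 and 20 bases for the first step. B2m held the longer interferon response element and a Y box but no match to the NF-kappaB letters. H2-Aa held an NF-kappaB match and a Y box, and H2-Eb1 held a pair of Y boxes and neither of the other elements. H2-Ke6 also held only Y boxes.

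RefSeq held a promoter for 37 of the 50 members and for 24 of the 37 tested ones. Either interferon response element was found in 10 of these 24 promoters (41.7%), against 10.4% of all 27025 promoters of the same length. The NF-kappaB letters were found in 6 (25.0%, against 5.72% of all), and a Y box in 19 (79.2%, against 37.9%). A gamma-activated site (TTCNNNGAA) was searched as well and was near its background, in 3 (12.5%, against 8.47%). These were H2-DMb2, H2-M3 and Psmb8. Class I genes are copies of each other, so their promoters do not count as separate cases, and a match is a stretch of letters rather than a measured binding site.

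Before the genotypes are compared, the libraries themselves need description, since the members ranked them alike. Wild-type replicate 1 was the highest wild-type library for 33 of 36 distinct tested members, and AE3-null replicate 1 was the highest of all 8 libraries for 31. Wild-type replicate 3 was the lowest of all 8 for 21 members and wild-type replicate 2 for 14. The median ratio of a member to its wild-type mean was 1.40, 0.802, 0.737 and 1.02 in wild-type replicates 1 to 4. In AE3-null replicates 1 to 4 it was 1.78, 1.31, 1.36 and 1.40. Wild-type replicate 1 thus lay within the range of the AE3-null libraries, above the lowest of them for 28 of 36 members and above their median for 24. The labels do not say that a replicate number stands for a shared litter, day or batch.

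**Figure D1:**
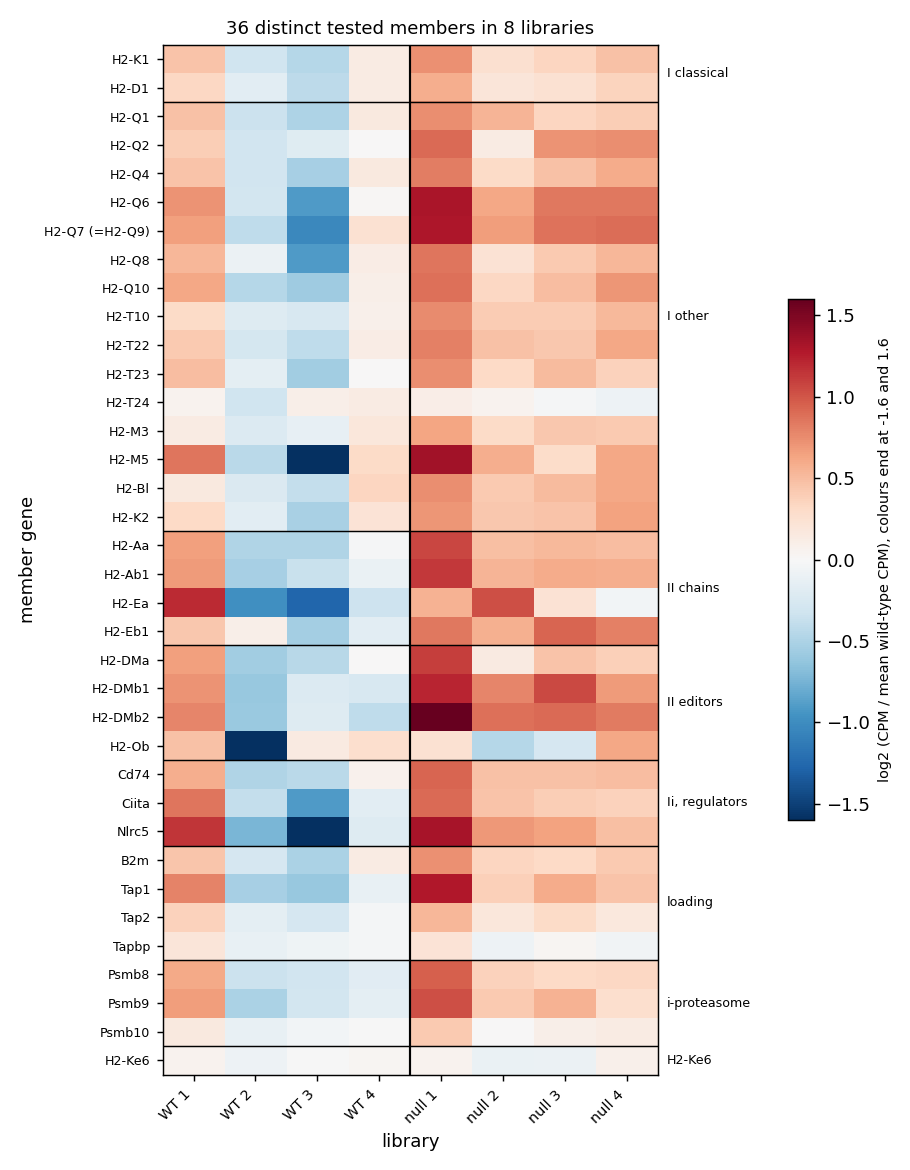
Level of each of the 36 distinct tested members (rows, by role) in each library (columns), as the log2 ratio of its CPM to its mean over the 4 wild-type libraries. Most rows are red in AE3-null replicate 1 (median ratio 1.78) and in wild-type replicate 1 (1.40) and blue in wild-type replicates 2 and 3 (0.802 and 0.737), while H2-T24, Tapbp and H2-Ke6 stay pale throughout.

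Of the 37 tested members, 36 had a log2 fold change above 0, meaning a higher level in AE3-null hearts, against 49.5% of all tested genes. The median over the members was 0.57, with a range from -0.01 for H2-Ke6 to 1.12 for H2-DMb2, and the median over all tested genes was -0.002. edgeR called 7 of the 37 higher (percentage of all tested genes called higher: 3.16%) and 0 lower. No member had a lower level at an unadjusted p under 0.05, and DESeq2 and limma voom also called 0 lower. For 9 of the 37 all AE3-null libraries lay above all wild-type libraries, a pattern that 6.1% of all tested genes showed. H2-Q7 and H2-Q9, whose counts are identical, are counted separately here and are both among the 9. The 7 called were H2-Eb1, H2-DMb1, H2-Q2, H2-T10, H2-M3, H2-Bl and H2-K2, while H2-K1, H2-D1, B2m, Cd74, H2-Aa and H2-Ab1 were not called.

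The number of calls rested on single libraries. Without wild-type replicate 1 it was 14 of 38 members (2.41% of all tested genes were then called higher), and without AE3-null replicate 1 it was 1, H2-Eb1 (2.15%). It was 2 without wild-type replicate 2 (2.17%), 5 without wild-type replicate 3 (5.74%) and 4 without wild-type replicate 4 (1.61%). Without AE3-null replicates 2, 3 and 4 in turn it was 4 (2.44%), 3 (2%) and 1 (1.51%). With both replicate 1 libraries left out, a step chosen after their levels were seen, 16 of 37 were called, all higher (1.43%). Those 16 included H2-Aa, H2-Ab1, Ciita, Tap1, Tap2, Psmb8 and Psmb9, and no longer H2-M3, H2-Bl or H2-K2. With all 8 libraries, DESeq2 called 10 of 37 higher (3.25% of all genes), limma voom 13 (3.05%) and edgeR without robust moderation 12 (2.92%). It was 7 with RLE scaling (3.21%) or total-count scaling (3.74%), 5 of 47 without a filter (2.53%), 6 of 32 with the stricter filter of 5 CPM in 4 libraries (3.92%) and 9 at an adjusted p under 0.1 (5.17%). No member was called lower in any of these fits. The calls of limma voom and of edgeR without robust moderation include both H2-Q7 and H2-Q9, whose counts are identical.

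**Figure D2:**
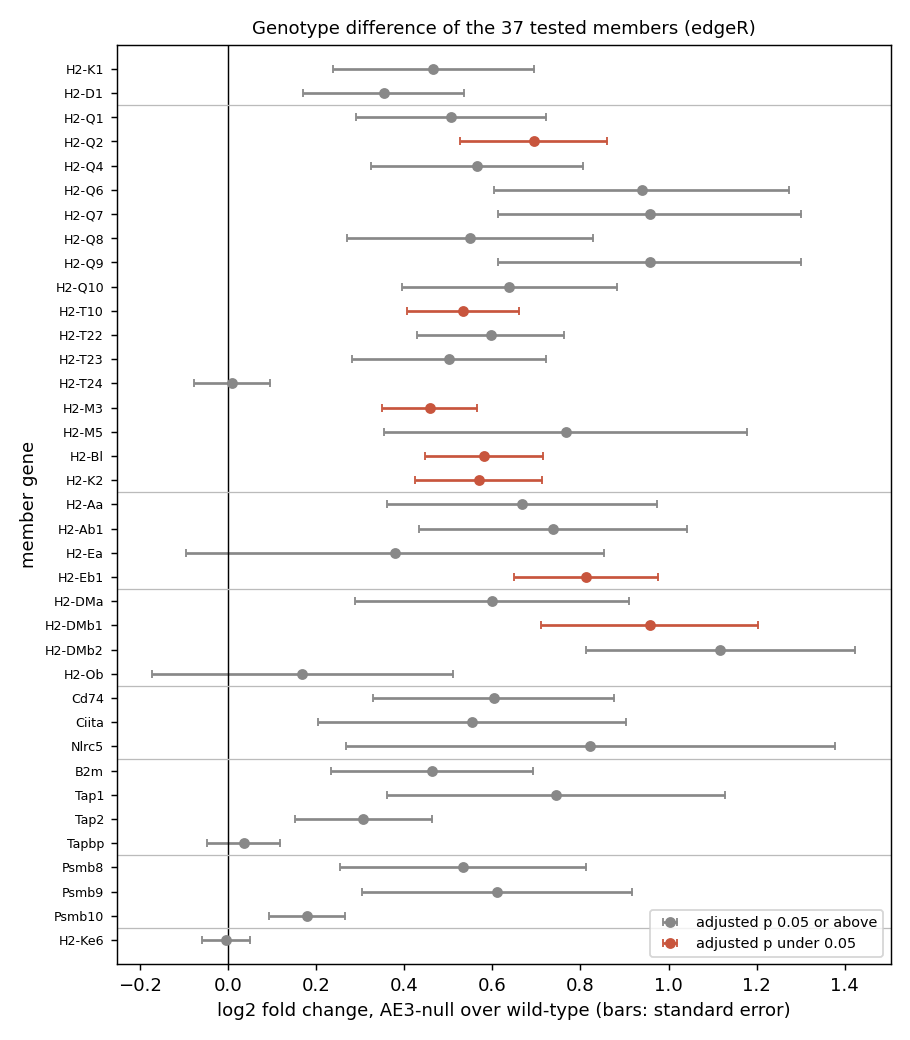
Log2 fold change of each tested member, AE3-null over wild-type, from the fit over all genes, with its standard error as a bar; grey lines separate the roles. Red points are the 7 members with an adjusted p under 0.05, and the widest bar belongs to Nlrc5 (0.82, SE 0.555).

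Among class II genes, H2-Eb1 gave the clearest difference. This gene encodes the beta chain of the class II molecule H2-E, and whether that molecule is made in these hearts was not measured. H2-Eb1 stood at 4.14, 3.27, 2.10 and 2.73 CPM in wild-type replicates 1 to 4 and at 5.47, 4.52, 5.84 and 5.34 CPM in AE3-null replicates 1 to 4. Every AE3-null library was above every wild-type library, although the lowest AE3-null value was close to the highest wild-type one. H2-Eb1 rose from 3.06 ± 0.864 to 5.29 ± 0.556 CPM (mean ± SD, n = 4; log2 0.81, SE 0.163, edgeR adjusted p 0.00697). These levels rest on 32 to 145 reads per library. It was called in all 18 alternatives in which it was tested, with an adjusted p of at most 0.0336, reached without wild-type replicate 4. It shares no 50-base stretch with the transcripts of another gene in the GENCODE M21 set.

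The chains of the other class II molecule, H2-A, were more abundant and less clearly separated. The alpha chain gene H2-Aa was measured at 105, 47.4, 47.7 and 65.6 CPM in the wild-type libraries and at 139, 93.0, 95.1 and 93.6 CPM in the AE3-null libraries. Wild-type replicate 1 exceeded 3 of the 4 AE3-null libraries, so the groups overlapped. The means were 66.4 ± 27.0 and 105 ± 22.7 CPM (SD, n = 4; log2 0.67, SE 0.307, edgeR adjusted p 0.284). The beta chain gene H2-Ab1 followed the same order, with 67.7, 29.3, 33.2 and 39.4 CPM against 93.3, 61.6, 63.9 and 63.2 CPM (log2 0.74, SE 0.304, edgeR adjusted p 0.238). H2-Aa and H2-Ab1 kept a nearly fixed proportion, with a CPM ratio of 1.57 ± 0.101 in wild-type and 1.49 ± 0.0124 in AE3-null hearts (SD, n = 4). The 5 class II chain genes summed to 113 ± 45.8 CPM in wild-type and 182 ± 38.1 CPM in AE3-null hearts (SD, n = 4), a ratio of 1.62. H2-Ea, the partner of H2-Eb1 and a pseudogene in the RefSeq table, had 6 to 35 reads per library and a log2 fold change of 0.38 (SE 0.474). H2-Eb2 had 2 reads in all libraries together.

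Class II editors exchange the peptide held by class II molecules in the endosome: H2-DM does so, and H2-DO restrains it. The DM beta chain gene H2-DMb1 had 5.13, 2.04, 2.69 and 2.62 CPM in wild-type and 7.28, 5.38, 6.47 and 5.01 CPM in AE3-null libraries. Wild-type replicate 1 again reached the AE3-null range, just above AE3-null replicate 4. H2-DMb1 rose from 3.12 ± 1.37 to 6.04 ± 1.04 CPM (mean ± SD, n = 4; log2 0.96, SE 0.247, edgeR adjusted p 0.0481), a call kept in 11 of 19 alternatives. Of the 8 fits that leave out 1 library, only the fit without wild-type replicate 1 kept it, and the adjusted p reached 0.153 without wild-type replicate 4.

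The second DM beta gene, H2-DMb2, had 3.52, 1.36, 1.77 and 1.55 CPM against 6.27, 3.77, 3.84 and 3.64 CPM, with every AE3-null library above every wild-type library. Its difference was the largest of the members (log2 1.12, SE 0.306) and lay just outside the threshold (edgeR adjusted p 0.0626). H2-DMb1 and H2-DMb2 share 22.7% of the 50-base words of H2-DMb1, so reads may have been split between them. The alpha chain gene H2-DMa was at 6.61, 2.86, 3.08 and 4.22 CPM against 9.05, 4.63, 5.73 and 5.45 CPM (log2 0.60, SE 0.312, edgeR adjusted p 0.327). The DO beta chain gene H2-Ob did not follow them (log2 0.17, SE 0.342), and H2-Oa had 17 reads in all.

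Cd74, the invariant chain, fills the class II groove until the endosome is reached. It was the member with the most reads after H2-D1 and B2m, at 253, 121, 125 and 178 CPM in wild-type and 323, 234, 234 and 238 CPM in AE3-null libraries. Wild-type replicate 1 exceeded AE3-null replicates 2 to 4, and the difference was not called (169 ± 61.6 against 257 ± 43.7 CPM, SD, n = 4; log2 0.60, SE 0.274, edgeR adjusted p 0.280). The class II transactivator gene Ciita had 7.35, 3.13, 2.16 and 3.64 CPM against 7.62, 5.60, 5.37 and 5.26 CPM (log2 0.55, SE 0.349, edgeR adjusted p 0.428). Without wild-type replicate 1, Ciita was called (log2 0.997, SE 0.189, edgeR adjusted p 0.00898). Nlrc5, the class I transactivator, varied more between wild-type libraries than any other member of at least 5 CPM. It had 24.3, 6.61, 3.61 and 9.52 CPM in wild-type and 27.5, 17.8, 17.3 and 15.3 CPM in AE3-null libraries, so that its highest wild-type value was 6.73 times its lowest (log2 0.82, SE 0.555, edgeR adjusted p 0.470).

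The classical class I heavy chains were among the most abundant members and were not called. H2-K1 was measured at 226, 133, 121 and 181 CPM in wild-type and at 276, 198, 210 and 228 CPM in AE3-null libraries. Wild-type replicate 1 lay between the AE3-null libraries, and the other wild-type libraries lay below all of them. The means were 165 ± 48.3 and 228 ± 34.1 CPM (SD, n = 4; log2 0.47, SE 0.229, edgeR adjusted p 0.315). H2-D1 showed the same order at a higher level, with 609, 428, 362 and 530 CPM against 723, 553, 571 and 615 CPM (log2 0.35, SE 0.183, edgeR adjusted p 0.341). Neither had an unadjusted p under 0.05, and neither DESeq2 nor limma voom called them.

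The other class I genes comprised 27 members, 16 of them tested, of which edgeR called 5 higher (3.16% of all tested genes were called higher). All 16 had a log2 fold change above 0 (49.5% of all tested genes did), from 0.01 for H2-T24 to 0.96 for H2-Q7, with a median of 0.58. H2-M3, which presents bacterial formylated peptides, had 7.23, 5.65, 6.03 and 7.48 CPM in wild-type and 10.2, 8.18, 8.89 and 8.83 CPM in AE3-null libraries. No value of one genotype fell within the range of the other. H2-M3 rose from 6.60 ± 0.893 to 9.02 ± 0.839 CPM (mean ± SD, n = 4; log2 0.46, SE 0.108, edgeR adjusted p 0.0183). It shares 0.576% of its 50-base words with another gene. The call was kept in 15 of 19 alternatives and lost without wild-type replicate 2, AE3-null replicate 1, AE3-null replicate 4 or both replicate 1 libraries (highest adjusted p 0.0935).

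H2-T10, a ligand of gamma-delta T cells that binds no peptide, had 22.8, 16.0, 15.5 and 19.6 CPM in wild-type and 31.1, 24.4, 24.5 and 26.5 CPM in AE3-null libraries. The groups did not overlap, and the means were 18.5 ± 3.40 and 26.6 ± 3.13 CPM (SD, n = 4; log2 0.53, SE 0.127, edgeR adjusted p 0.0384). The RefSeq table lists H2-T10 as a pseudogene in the reference strain, and 31.7% of its 50-base words also occur in H2-T22. H2-T22, a ligand of the same kind, also had its groups apart (log2 0.60, SE 0.167, edgeR adjusted p 0.0694). H2-Q2 had 8.52, 5.25, 5.64 and 6.47 CPM against 12.1, 7.11, 10.7 and 10.8 CPM. Wild-type replicate 1 was above AE3-null replicate 2, and H2-Q2 rose from 6.47 ± 1.46 to 10.2 ± 2.15 CPM (mean ± SD, n = 4; log2 0.69, SE 0.168, edgeR adjusted p 0.0328).

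H2-Bl and H2-K2 are listed as pseudogenes, and their reads followed each other closely over the libraries. H2-Bl had 6.92, 5.31, 4.79 and 7.86 CPM in wild-type and 10.4, 8.29, 8.84 and 9.53 CPM in AE3-null libraries. Its groups did not overlap (log2 0.58, SE 0.135, edgeR adjusted p 0.0183). H2-K2 had 7.23, 5.18, 4.06 and 6.79 CPM against 9.47, 7.86, 8.0 and 9.05 CPM, also with no overlap (log2 0.57, SE 0.144, edgeR adjusted p 0.0297). Each shares about 9.4% of its 50-base words with other class I transcripts, so part of these reads may belong to other genes.

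Single libraries decided most of these class I calls. H2-Bl lost its call without AE3-null replicate 1, AE3-null replicate 4 or both replicate 1 libraries (highest adjusted p 0.0916). H2-K2 lost it without wild-type replicate 2, any 1 of the AE3-null libraries or both replicate 1 libraries (0.103). H2-T10 lost it without wild-type replicate 2 or 4, any 1 of the AE3-null libraries or the filter on low counts (0.102). H2-Q2 lost it without wild-type replicate 2, 3 or 4 or AE3-null replicate 1, 3 or 4 (0.108). Their log2 fold changes stayed between 0.44 and 0.85 in all alternatives.

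H2-Q4 was the most abundant of the other class I genes, at 117, 69.1, 59.1 and 95.4 CPM in wild-type and 150, 105, 118 and 129 CPM in AE3-null libraries (log2 0.57, SE 0.241, edgeR adjusted p 0.251). Wild-type replicate 1 was above AE3-null replicate 2 and below the rest. H2-Q7 and H2-Q9, which encode the Qa-2 antigen, had identical counts in all 8 libraries, so their rows hold the same reads and were counted as 1 wherever levels are summed. That row had 23.3, 11.2, 7.28 and 17.5 CPM against 36.4, 23.6, 27.0 and 27.6 CPM. Its groups did not overlap, but its spread within each genotype was wide and it was not called (log2 0.96, SE 0.344, edgeR adjusted p 0.183). H2-T24, chosen after its values were seen because it stood apart, had 16.5 to 22.6 CPM in wild-type and 19.4 to 22.1 CPM in AE3-null libraries (log2 0.01, SE 0.086). The 11 untested genes of this role had at most 17 reads in any library.

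**Figure D3:**
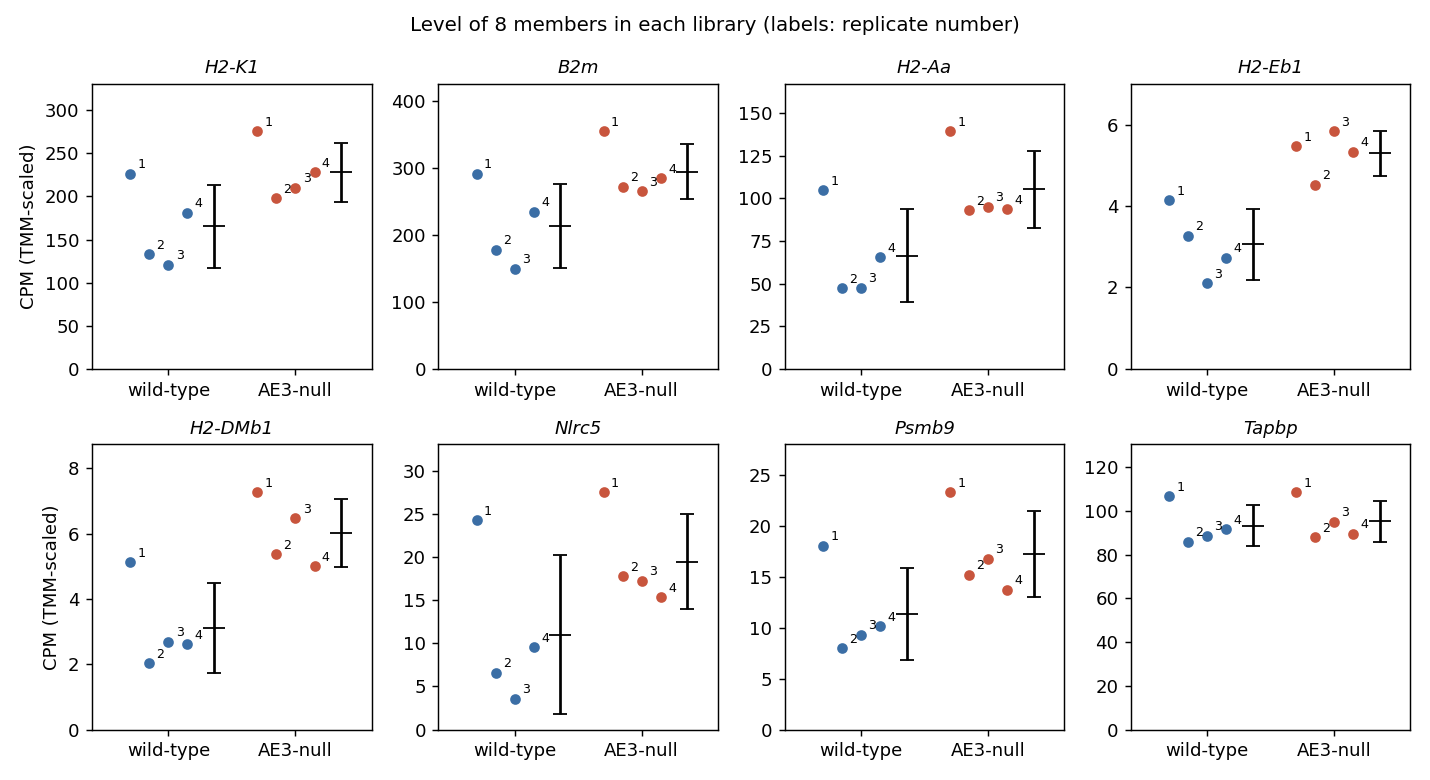
CPM of 8 members in each library (points, labelled by replicate number), with the mean and SD of each genotype (n = 4) as a black bar beside the points. In H2-K1, B2m, H2-Aa, Nlrc5 and Psmb9 wild-type replicate 1 sits within the AE3-null range, in H2-Eb1 the groups are apart (2.10 to 4.14 against 4.52 to 5.84 CPM), and in Tapbp they coincide.

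Peptide loading onto class I needs beta-2 microglobulin, the TAP transporter and tapasin. B2m was at 292, 178, 150 and 235 CPM in wild-type and at 355, 272, 266 and 285 CPM in AE3-null libraries. As for H2-K1, only wild-type replicate 1 reached the AE3-null range (214 ± 62.9 against 295 ± 41.2 CPM, SD, n = 4; log2 0.46, SE 0.229, edgeR adjusted p 0.318). The ratio of H2-K1 to B2m came to 0.775 ± 0.0252 (SD, n = 4) for wild-type and 0.774 ± 0.0327 for AE3-null hearts. Heavy chain and partner thus moved in near-constant proportion over the 8 libraries.

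The transporter subunits differed in range. Tap2 had 77.7, 54.2, 50.3 and 59.3 CPM against 87.1, 68.4, 74.6 and 68.2 CPM (log2 0.31, SE 0.156, edgeR adjusted p 0.325). Tap1, given although it was not among the 3 most abundant of its role, had 34.6, 13.8, 13.1 and 18.5 CPM against 48.7, 26.1, 30.3 and 27.5 CPM (log2 0.74, SE 0.384, edgeR adjusted p 0.339). Tap1 and Tap2 ranked the libraries much alike, but Tap1 over Tap2 ran from 0.255 in wild-type replicate 2 to 0.559 in AE3-null replicate 1. Tapasin, encoded by Tapbp, barely varied, with 107, 86.0, 88.8 and 91.6 CPM against 109, 88.0, 95.2 and 89.6 CPM (log2 0.03, SE 0.083, edgeR adjusted p 0.864).

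The immunoproteasome replaces the catalytic subunits Psmb5, Psmb6 and Psmb7 of the standard proteasome with Psmb8, Psmb9 and Psmb10. Psmb8 had 30.8, 15.9, 16.3 and 17.8 CPM in wild-type and 39.2, 25.9, 25.2 and 25.4 CPM in AE3-null libraries (log2 0.53, SE 0.279, edgeR adjusted p 0.345). In both genotypes replicate 1 stood far above the other 3 libraries, which were close to each other. Psmb9 behaved likewise, with 18.0, 7.97, 9.31 and 10.2 CPM against 23.3, 15.2, 16.8 and 13.7 CPM (log2 0.61, SE 0.306, edgeR adjusted p 0.322). Psmb10 varied less, with 58.9, 48.7, 51.0 and 52.4 CPM against 70.4, 53.1, 56.4 and 57.9 CPM (log2 0.18, SE 0.087, edgeR adjusted p 0.273). The standard subunits Psmb5, Psmb6 and Psmb7 had log2 fold changes of 0.05 (SE 0.049), 0.08 (SE 0.041) and -0.004 (SE 0.038). H2-Ke6, a hydroxysteroid dehydrogenase gene that carries the H2 name by position only, had 40.7 to 44.5 CPM in wild-type and 39.9 to 45.5 CPM in AE3-null libraries (log2 -0.01, SE 0.055). Of its 50-base words, 70.5% also occur in an overlapping gene model, so its count is uncertain.

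Per kilobase of the longest coding transcript, B2m and H2-D1 had the highest wild-type levels of the members, at 248 ± 73.2 and 229 ± 51.9 CPM per kilobase (SD, n = 4). Their order is within the spread. Cd74 (120 ± 43.7) and H2-K1 (102 ± 29.8) came next and did not differ beyond their spread either. H2-Aa, H2-Q4, Psmb10, H2-Ke6, H2-Ab1 and Tapbp lay between 32.2 and 58.9, and Tap2, H2-T10 and Psmb8 between 12.4 and 17.5. H2-Eb1 (1.83 ± 0.518), Nlrc5 (1.45 ± 1.21) and Ciita (0.678 ± 0.378) were low on this scale. The called H2-Eb1 thus had a small part of the class II chain reads.

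The members varied far more between libraries of a genotype than most genes did. Over the 30 members of at least 5 CPM the median coefficient of variation came to 30.8% for wild-type and 15.1% for AE3-null hearts, against 6.02% and 5.15% over 10979 genes at that level. The variation was shared. After centring within each genotype, the median Pearson correlation over 435 pairs of these members was 0.882 over 8 libraries. It was 0.808 without wild-type replicate 1 and 0.747 without both replicate 1 libraries. All pairs share the same libraries, so these are descriptions without a test.

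Partners of one molecule were closely correlated. H2-Aa with Cd74 had a correlation of 0.993, H2-Aa with H2-Ab1 0.988, Tap1 with Tap2 0.990 and H2-K1 with B2m 0.986. Genes of different classes also moved together, with 0.957 for H2-K1 and H2-Aa (0.920 without wild-type replicate 1). The median was 0.893 over 68 pairs of a class I gene or B2m with a class II gene or Cd74. The transactivators were correlated with the chains they are known to control, at 0.928 for Nlrc5 and H2-K1 (0.856 without wild-type replicate 1) and 0.944 for Ciita and H2-Aa (0.829). Without both replicate 1 libraries these were 0.794 and 0.703. Nlrc5 had a median correlation of 0.919 with the other members, so its value with H2-K1 was not particular to that gene. H2-T24 and H2-Ke6 followed the rest less closely, with median correlations of 0.378 and 0.551 with the other members.

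Outside the set, the genes whose level followed H2-K1 most closely among 10948 compared were a row with no matched symbol (r = 0.992) and Cfb (0.989), the complement factor B gene. The row with no symbol had 0.975 to 1.0 times the CPM of H2-T22 in every library, so it may hold reads of that member (log2 0.60, edgeR adjusted p 0.0719). Gdpd3 (0.986), Rbm5 (0.973) and Mir5107 (0.969) came next. Cfb, Rbm5 and Mir5107 had log2 fold changes of 0.06, 0.10 and 0.54 (edgeR adjusted p 0.871, 0.327 and 0.265), and none was called. Gdpd3, a phospholipase gene, fell by 0.23 on the log2 scale (edgeR adjusted p 0.0493). H2-Eb1 was followed most closely by Zfp959 (0.966), Rhbdd2 (0.960), Tmem68 (0.945), C4b (0.941) and C4a (0.934). C4b and C4a are complement component 4 genes, and their log2 fold changes were 0.03 and 0.08. None of these 5 was called. Picking the top 5 of 10948 genes over 8 libraries yields high correlations by chance too, and no correlation was tested.

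A list of 46 further genes of antigen processing and interferon signalling showed no like shift. Of 45 tested, edgeR called 0 higher and 4 lower, 24 had a log2 fold change above 0, and the median was 0.03. Over all tested genes, 3.16% were called higher and 3.31% lower, and 49.5% had a log2 fold change above 0. At an unadjusted p under 0.05, 6 were higher and 7 lower. DESeq2 called 1 higher and 5 lower, and limma voom 0 and 4. The called genes changed little. Jak1, a kinase of interferon receptors, fell by 0.17 on the log2 scale (SE 0.039, edgeR adjusted p 0.0193), and the interferon-gamma receptor chain Ifngr1 fell by 0.19 (SE 0.048, edgeR adjusted p 0.0275). Pdia3, a chaperone of class I loading, fell by 0.21 (SE 0.051, edgeR adjusted p 0.0210), and the endosomal protease Ctsd fell by 0.12 (SE 0.033, edgeR adjusted p 0.0366). Jak1, Ifngr1 and Ctsd had no overlap between genotypes, and Pdia3 did.

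Irf1, an interferon regulatory factor gene that was not called, was highest in wild-type replicate 1, with 46.6, 27.3, 26.8 and 31.0 CPM against 43.8, 34.2, 31.5 and 33.2 CPM (log2 0.12, SE 0.215, edgeR adjusted p 0.820). Ifng, the interferon-gamma gene, was too low to be tested, with no read in 7 of the 8 libraries and 0.0842 CPM in AE3-null replicate 1.

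Marker genes of cell types give the makeup of these libraries as far as bulk RNA can. In such samples fewer cells of a type and less RNA per cell cannot be told apart. Summed levels of 14 macrophage markers were 435 to 497 CPM in wild-type and 412 to 479 CPM in AE3-null libraries (455 ± 28.7 against 447 ± 27.5 CPM, SD, n = 4). The highest macrophage sum in each genotype was that of replicate 1. edgeR called none of these 14 genes, with 2 higher and 2 lower at an unadjusted p under 0.05; DESeq2 called 2 higher and limma voom none. Class II chains over macrophage markers had a ratio of 0.244 ± 0.0815 in wild-type and 0.406 ± 0.0638 in AE3-null hearts (SD, n = 4). The marker sum pools genes that rose and genes that fell, so the ratio does not give class II per macrophage. Whether the mix of macrophage types differed was not tested. Of the 14, 5 had a log2 fold change above 0 and 9 below, with a median of -0.06. The 4 with an unadjusted p under 0.05 were the chemokine receptor genes Ccr2 (log2 0.75, SE 0.288, edgeR adjusted p 0.171) and Cx3cr1 (log2 0.71, SE 0.221, edgeR adjusted p 0.109), the integrin gene Itgam (log2 -0.29, SE 0.098, edgeR adjusted p 0.0937) and Lyve1 (log2 -0.23, SE 0.098, edgeR adjusted p 0.199).

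Dendritic cell markers, 9 in all with 6 tested, summed to 25.2 ± 1.92 CPM in wild-type and 23.8 ± 0.481 CPM in AE3-null hearts (SD, n = 4). edgeR, DESeq2 and limma voom called none of them, and 1 was higher and 1 lower at an unadjusted p under 0.05 in edgeR. The higher one was Itgax (log2 0.64, SE 0.247, edgeR adjusted p 0.143) and the lower one Zbtb46 (log2 -0.22, SE 0.081, edgeR adjusted p 0.122). Zbtb46 alone made up 14.9 CPM of the mean wild-type sum and 12.9 CPM of the AE3-null one, so the sum mostly follows that gene. The 6 B cell markers summed to 1.11 to 1.71 CPM in wild-type and 1.8 to 3.05 CPM in AE3-null libraries, with none abundant enough to be tested. The 6 T cell markers summed to 2.38 to 3.52 CPM and 2.15 to 4.08 CPM, and the 3 neutrophil markers in the table to 1.64 to 3.27 CPM and 1.29 to 2.57 CPM. No marker of these lists was at 0 in all libraries.

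Endothelial markers went the opposite way from the MHC genes. Their 9 genes summed to 1643 ± 66.9 CPM in wild-type and 1408 ± 35.8 CPM in AE3-null hearts (SD, n = 4). The ranges were 1568 to 1721 CPM and 1359 to 1444 CPM. edgeR called 4 of the 9 lower, against 3.31% of all tested genes. Atrial muscle markers, 4 of 4 called higher (3.16% of all tested genes were), summed to 2968 ± 237 and 3961 ± 273 CPM. Red cell genes summed to 3129 ± 595 and 2089 ± 305 CPM over 3 distinct rows, Hba-a1 and Hba-a2 having identical counts and being counted as 1; edgeR called none, with 3 lower at an unadjusted p under 0.05, and DESeq2 and limma voom called all 3 lower. Of 6 fibroblast markers, edgeR called 1 lower and none higher, while DESeq2 and limma voom each called 1 higher and 1 lower. The part of these differences in the levels of the MHC genes was not tested.

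**Figure D4:**
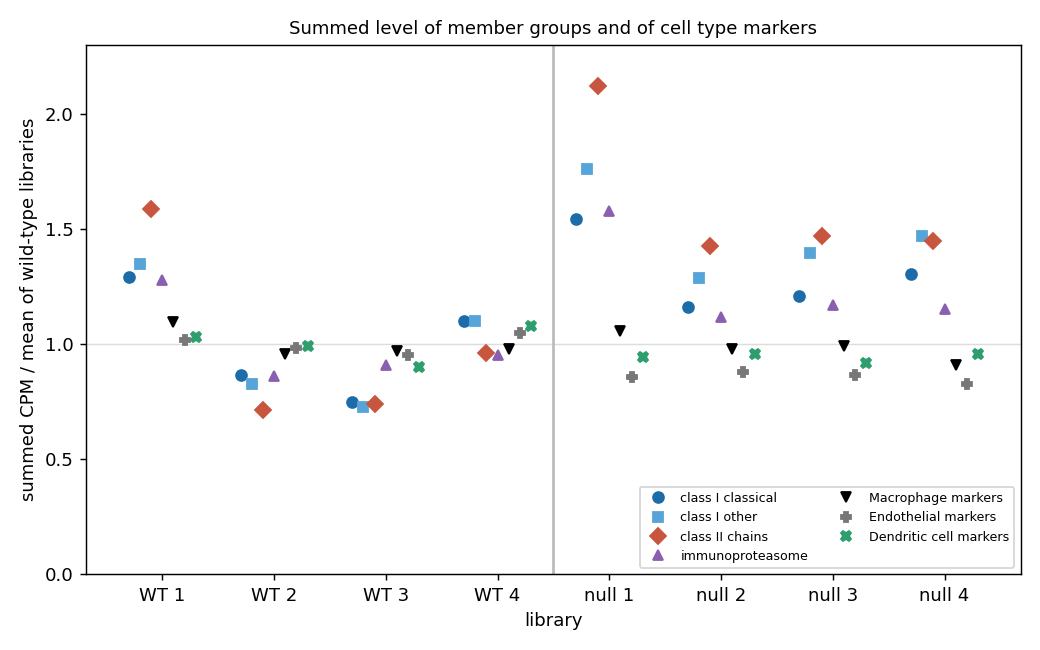
Summed CPM of 4 member groups and 3 marker lists in each library, each divided by its mean over the wild-type libraries (grey line at 1). Class II chains run from 80.5 to 179 CPM in wild-type and from 161 to 239 CPM in AE3-null libraries, while the macrophage sums stay between 412 and 497 CPM.

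Of the 13 untested members, H2-M1, H2-M10.1 and H2-M10.4 had no read in any library. With 144171851 reads in all, a count of 0 allows up to 3 reads, or 0.0208 CPM over the 8 libraries together, which covers counting error only. A further 7 had fewer than 10 reads in total. H2-T3, H2-M2 and H2-Oa had 76, 55 and 17. No difference between the genotypes was detectable in these at this depth.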

How the data were processed

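Wild-type libraries (4) were compared with AE3-null libraries (4), and groups and replicate numbers come from the labels. The authors deposited raw read counts for each gene. Per the submitters' processing notes, reads were handled with bcl2fastq from CASAVA 1.8, aligned with TopHat to mm9 and analysed in DESeq. Which program counted reads, with which strand setting and annotation, is not given in the sources used here, so overlapping genes and near-identical copies may exchange reads. The mm9 genome is of strain C57BL/6 and MHC genes differ between strains; the effect of aligning FVB/N reads to it was not tested.

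Of 23282 Entrez numbers, 23185 matched a RefSeq symbol (GRCm38.p6). Genes were filtered with edgeR's filterByExpr (minimum count 10), scaled by TMM and tested with the quasi-likelihood F test with robust moderation, no covariates and Benjamini-Hochberg adjustment over 14136 genes (called under 0.05). The standard error is the log2 fold change over the square root of F. Correlations used log2(CPM + 0.1). Shared 50-base words and transcript lengths came from GENCODE M21. Total counts per library ran from 9133628 to 27078351. The fit was tested on simulated data.

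Members, lists and motifs were chosen with earlier results of these data known. Given in full are members called and the 3 of each role with the highest mean CPM. The members H2-T22, H2-T24, H2-Ob, H2-Ea, H2-Ke6 and Tap1 were added after their values were seen. So were Irf1, Ifng, Psmb5, Psmb6, Psmb7, Ccr2, Cx3cr1, Itgam, Lyve1, Itgax and Zbtb46. Of the other pathway genes, called ones were named, and for H2-Eb1 and H2-K1 the 5 genes most alike. Alternatives were RLE or total-count scaling, no filter or 5 CPM in 4 libraries, DESeq2, limma voom, edgeR without robust moderation, an adjusted p under 0.1, a replicate block, 1 of each set of identical rows, each library left out, and both replicate 1 libraries left out (added later). Within a genotype, chi-square values between libraries were 2.51 to 7.40 per gene, so no library was a copy. Versions were DESeq2 1.42.0, limma 3.58.1, edgeR 4.0.16 and R 4.3.3.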

Additional observations from a re-analysis of the deposited data

Results flagged for a closer look

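Of 68 groups of 4 libraries examined (27 members and 7 role sums in each genotype), 11 had a library whose gap to the nearest other, divided by the group's range, was above 0.829; chance alone gives about 1 in 20. These genes vary together, so the 11 are not separate cases. In 10 of them the library was AE3-null replicate 1. H2-Aa stood there at 139 CPM against 93.0 to 95.1 CPM in the other AE3-null libraries, and H2-Ab1 at 93.3 CPM against 61.6 to 63.9 CPM. H2-DMb2 was at 6.27 CPM against 3.64 to 3.84 CPM, and Cd74 at 322.6 CPM against 234 to 238 CPM. Ciita was at 7.62 CPM against 5.26 to 5.60 CPM, and Psmb8 at 39.2 CPM against 25.2 to 25.9 CPM. The class II chains summed to 239 CPM there, the invariant chain and regulators to 358 CPM, peptide loading genes to 599.8 CPM and the immunoproteasome to 133 CPM, each above the other 3 libraries. The remaining case was Psmb8 in wild-type replicate 1, at 30.8 CPM against 15.9 to 17.8 CPM.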

How the results depend on the processing

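All members called in any setting were higher in AE3-null hearts. H2-Q7 and H2-Q9, whose counts are identical, are counted separately among the calls of limma voom and of edgeR without robust moderation. The 7 calls became 13 with limma voom (3.05% of all genes were then called higher), 12 without robust moderation (2.92%) and 16 without both replicate 1 libraries (1.43%), and leaving out 1 library gave 1 to 14 (1.51% to 5.74%). Over all genes, 1547 were called at an adjusted p under 0.1, 362 without both replicate 1 libraries, and 407 to 1727 with 1 library left out. Scaling by total counts gave 528 higher and 361 lower, in place of 447 and 468. The replicate number as a block gave 1002 calls over all genes and 21 members (3.43% of all genes were then called higher), 7 of them those called without it. Same-numbered libraries correlated at -0.01 to 0.22 in their deviations from the group means, 1 of 4 pairs above 0.1. The replicate 1 libraries had the highest value, 0.22. The labels do not say whether the numbers pair the samples, and 4 correlations over all genes cannot decide it.

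The members that changed sign were H2-Ke6, H2-T24, H2-Ob and Tapbp. H2-Ke6 (log2 -0.01) came to 0.0131 with total counts and 0.000685 with limma voom, and to between -0.0401 and 0.0231 with 1 library left out. H2-T24 came to -0.00064 with the replicate block, -0.0136 without both replicate 1 libraries, and to between -0.0794 and 0.0594 with 1 library left out. H2-Ob ran from -0.101 to 0.352 and Tapbp from -0.0338 to 0.107 with 1 library left out. Causes were not tested. Counts under about 100 reads in at least 1 library limit, among others, H2-Eb1, H2-DMb1, H2-DMb2, H2-Ea and Ciita. They also limit the called class I genes H2-Q2, H2-M3, H2-Bl and H2-K2, with 62 to 294 reads per library.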
